A study of Mus musculus with 2 samples.

Results

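Genes of vesicle traffic whose symbols begin with Rab or Vps followed by a digit were examined in a genome-wide profile of Sox4 binding in mouse progenitor B cells. The rule gave 102 protein-coding genes, 68 Rab and 34 Vps, of 20949 examined. The file lists 69 of them for at least 1 peak (42 Rab and 27 Vps). Promoter peaks are those whose interval comes within 5 kb of a transcription start site (TSS) of the member.

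The profile is a bioChIP of 1 library, in which chromatin carrying biotin-tagged Sox4 was captured on streptavidin beads, and the series adds 1 library of input chromatin. Both libraries come from the same kind of cell, a C57BL/6 progenitor B cell of embryonic fetal liver. The cells had received retroviruses for BirA (the ligase that biotinylates the tag), p190 Bcr-Abl (the oncogene that immortalized them), SE-Cre and BAP-Sox4, and were sorted after each transduction. No replicate, no cells without tagged Sox4 and no file of the input library were analysed here, so no test between conditions was possible. A peak list holds no expression values, and the cell type could not be checked against its markers. Peaks are reported as pull-down signal, and direct binding of Sox4 was not tested. For each peak the authors gave the number of tags (reads in the peak, not scaled to depth), a linear fold over the background that the peak caller expected, and a score that grows as the caller's p-value falls. These values are the authors' own throughout and rank peaks within this list of 8730. Over the whole list the median was 71 tags and a fold of 4.43. Intervals on shares are exact Clopper-Pearson intervals, those on tags exact Poisson intervals, and both cover counting error only.

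Rab proteins are small GTPases. Each marks a set of membranes and, when loaded with GTP, recruits the motors, tethers and fusion factors that move vesicles there. Vps genes take their name from yeast vacuolar protein sorting mutants and mostly encode subunits of the complexes that sort cargo at endosomes: ESCRT, which buds vesicles into endosomes, the tethers HOPS and CORVET, retromer, which retrieves receptors, and GARP, a tether at the Golgi. B cells use these routes to recycle receptors and to deliver antigen to late endosomes.

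The promoters below are RefSeq windows of the assembly GRCm38.p6, from 250 bases before to 50 bases after an annotated TSS, printed 5′ to 3′ on the gene's strand with every CpG in capitals. The first 5 belong to the members with the highest peak scores among those with 1 annotated window and a peak over the TSS. Their scores ran from 192 (Vps4a) to 381 (Rab11b), beside an upper quartile of 198 for all genes with a promoter peak. Rab17 and Rab6b were not listed for any peak, and had the fewest and the most CpG among unlisted members with 1 annotated window. Unlisted members with several windows are not printed, and some of those windows lay outside this range (1 CpG at Rab3il1, 45 at Rab23).
Rab11b (chr17:33760437-33760736, minus strand): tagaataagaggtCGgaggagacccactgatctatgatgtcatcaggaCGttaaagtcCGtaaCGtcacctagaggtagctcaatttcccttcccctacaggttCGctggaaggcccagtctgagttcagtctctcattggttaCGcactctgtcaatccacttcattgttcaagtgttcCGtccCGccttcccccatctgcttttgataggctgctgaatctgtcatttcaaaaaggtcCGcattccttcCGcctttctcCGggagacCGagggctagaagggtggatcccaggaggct
Rab1 (chr11:20201162-20201461, plus strand): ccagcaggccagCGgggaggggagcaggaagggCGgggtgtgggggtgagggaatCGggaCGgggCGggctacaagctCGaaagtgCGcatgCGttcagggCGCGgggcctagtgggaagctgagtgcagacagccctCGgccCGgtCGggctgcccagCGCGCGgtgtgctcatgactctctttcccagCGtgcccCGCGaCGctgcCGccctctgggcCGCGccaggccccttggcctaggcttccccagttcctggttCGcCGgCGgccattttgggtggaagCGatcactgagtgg
Rab5a (chr17:53478984-53479283, plus strand): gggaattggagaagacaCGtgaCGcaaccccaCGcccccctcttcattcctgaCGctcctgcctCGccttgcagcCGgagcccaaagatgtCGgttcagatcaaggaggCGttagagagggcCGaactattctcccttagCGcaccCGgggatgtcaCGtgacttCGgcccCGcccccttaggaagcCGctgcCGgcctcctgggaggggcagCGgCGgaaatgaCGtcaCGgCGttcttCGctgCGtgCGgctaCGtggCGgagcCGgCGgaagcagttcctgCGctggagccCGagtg
Rab33b (chr3:51483716-51484015, plus strand): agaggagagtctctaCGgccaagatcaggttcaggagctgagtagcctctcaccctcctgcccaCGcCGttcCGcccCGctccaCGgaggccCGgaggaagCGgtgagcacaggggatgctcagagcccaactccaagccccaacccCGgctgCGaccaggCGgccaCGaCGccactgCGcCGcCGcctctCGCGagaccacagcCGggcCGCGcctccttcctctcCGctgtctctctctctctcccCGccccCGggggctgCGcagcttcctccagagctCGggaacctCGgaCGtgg
Vps4a (chr8:107031019-107031318, plus strand): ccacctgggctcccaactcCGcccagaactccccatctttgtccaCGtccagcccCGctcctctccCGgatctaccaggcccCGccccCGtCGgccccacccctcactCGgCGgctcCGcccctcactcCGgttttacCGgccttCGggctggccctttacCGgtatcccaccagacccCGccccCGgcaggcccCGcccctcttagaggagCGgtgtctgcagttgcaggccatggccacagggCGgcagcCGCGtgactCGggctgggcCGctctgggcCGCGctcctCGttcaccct
Rab17 (chr1:90967618-90967917, minus strand): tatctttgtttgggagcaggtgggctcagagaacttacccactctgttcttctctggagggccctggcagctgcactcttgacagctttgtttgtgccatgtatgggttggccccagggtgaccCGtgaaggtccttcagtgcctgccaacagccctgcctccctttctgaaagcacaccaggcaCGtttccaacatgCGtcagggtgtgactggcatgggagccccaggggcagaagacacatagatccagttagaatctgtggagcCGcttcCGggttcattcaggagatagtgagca
Rab6b (chr9:103111824-103112123, plus strand): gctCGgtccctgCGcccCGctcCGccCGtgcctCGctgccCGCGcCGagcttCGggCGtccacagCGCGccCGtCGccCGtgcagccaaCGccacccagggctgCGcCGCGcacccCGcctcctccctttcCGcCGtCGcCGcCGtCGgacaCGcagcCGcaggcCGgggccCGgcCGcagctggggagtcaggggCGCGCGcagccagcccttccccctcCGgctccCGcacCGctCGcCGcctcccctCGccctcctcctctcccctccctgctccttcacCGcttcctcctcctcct
The window of Rab11b held 12 CpG, those of Rab1, Rab5a, Rab33b and Vps4a held 27, 30, 28 and 26, and those of Rab17 and Rab6b held 5 and 42. A CpG-rich start was therefore found both among the printed members with a peak and at Rab6b, which had none.

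The share of genes with a promoter peak was 44.1% for Rab (30 of 68, interval 32.1 to 56.7%) and 61.8% for Vps (21 of 34, interval 43.6 to 77.8%), beside 32.8% of all protein-coding genes (6875 of 20949). The Vps interval lay above the share of all genes, the Rab interval included it, and the intervals of the families overlapped. The statement on Rab turns with the counting: the Rab interval lay above the share of all genes with a window of 20 kb (44.8 to 69.3%, beside 41.9%) and just above it with renamed genes added (32.9 to 57.4%, beside 32.8%). The difference between the families was not tested, because genes of 1 library are not replicates. A further 6 Rab and 5 Vps genes had a peak farther inside the gene or less than 10 kb from either end, which brought the families to 52.9% (36 of 68) and 76.5% (26 of 34), beside 40.8% of all genes. No peak within 25 kb was listed for 26 Rab genes (38.2%) and 7 Vps genes (20.6%), beside 51.1% of all genes. Members were longer than genes in general, with a median of 25.3 kb for Rab and 27.9 kb for Vps, beside 17.8 kb for all.

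**Figure D1:**
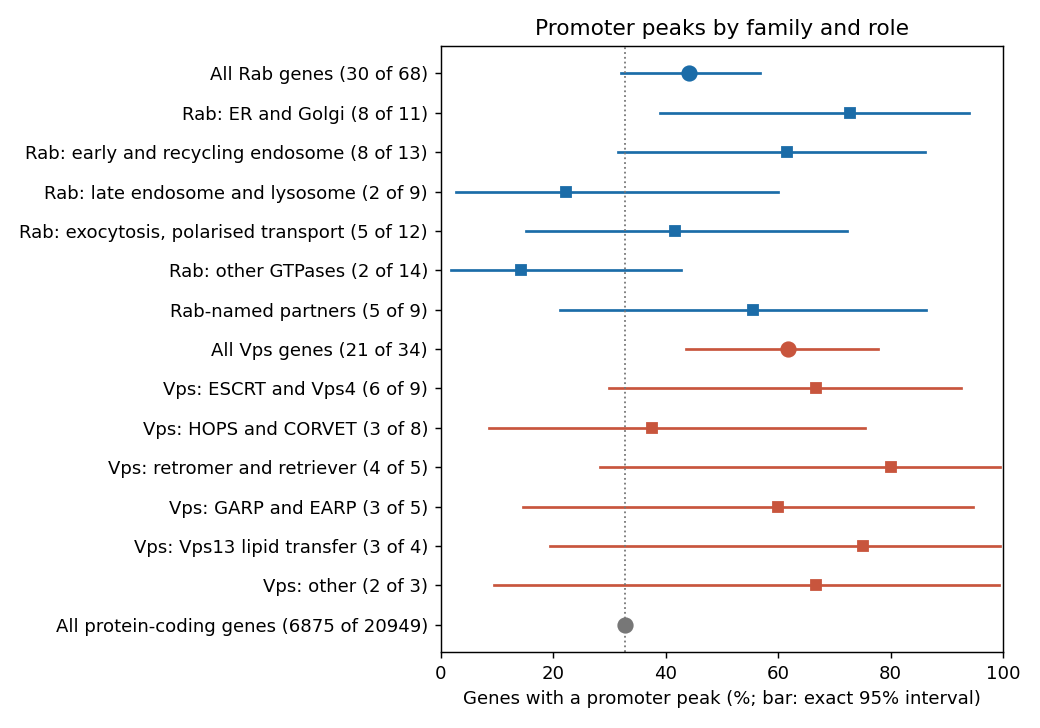
Share of genes with a promoter peak (x axis, %) by family and role, Rab in blue, Vps in red and all protein-coding genes in grey; circles are whole families or all genes, squares role groups, and bars exact 95% intervals. Rab genes of the ER and Golgi reached 72.7% and those grouped as other GTPases 14.3%, on either side of the dotted line at the share of all genes.

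Promoter peaks were found in every role group of the Rab genes, to be read against the 32.8% of all protein-coding genes. Of the 11 Rab genes that serve the ER and Golgi, 8 had one (72.7%, 39.0 to 94.0%), and of the 13 of early and recycling endosomes 8 had one (61.5%, 31.6 to 86.1%). The count was 5 of 12 for exocytosis and polarised transport (41.7%), 2 of 9 for late endosomes and lysosomes (22.2%, 2.81 to 60.0%) and 2 of 14 for the remaining GTPases (14.3%, 1.78 to 42.8%). Among genes named for a Rab partner, which encode regulators or effectors and no GTPase, 5 of 9 had a promoter peak (55.6%). Of these small groups, the interval of the ER and Golgi genes alone lay above the share of all genes. The groups were drawn up with earlier results of these data known, so this is description only. Differences between groups were not tested.

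Rab1, which directs vesicles from the ER to the Golgi, had the highest promoter-peak score of the ER and Golgi group. Its peak on chromosome 11 from 20100726 to 20102058 (mm9; NM_008996) covered the TSS and held 125 tags (104 to 149) with a fold of 6.90 (score 307). Rab1b, its close relative, also had a peak over its TSS, with 60 tags (45.8 to 77.2) and a fold of 3.42 (score 69.6). The tag intervals of this pair did not overlap, and the Rab1 peak was also the wider (1332 bp for Rab1 and 868 bp for Rab1b). Rab33b, a Golgi Rab that also acts in autophagy, had 115 tags (94.9 to 138) with a fold of 6.52 (score 199; chromosome 3, 51287536 to 51288576). Rab2a, which acts between Golgi and ER, had 100 tags (81.4 to 122) and a fold of 5.88, and its relative Rab2b 60 tags (45.8 to 77.2) and a fold of 4.19. The Rab2b peak also covered the TSS of Tox4, which the file names as closest. The Golgi gene Rab30 had a fold of 5.37 in a peak that also covered the start of 4632427E13Rik. Rab18, linked to ER and lipid droplets, had a fold of 4.39 and the Golgi gene Rab6a a fold of 3.93. Rab6b and Rab43 were not listed for any peak, nor was the X-linked Rab33a.

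Rab11b, of the early and recycling endosome genes, had the highest score among the promoter peaks of both families. Rab11 proteins return receptors from recycling endosomes to the surface. The Rab11b peak (chromosome 17, 33896527 to 33897942; NM_008997) held 155 tags (132 to 181) with a fold of 6.67 (score 381), which ranked 626 of 8730. Rab11a also had a peak over its TSS, weaker at 42 tags (30.3 to 56.8) and a fold of 4.34 (score 69.3). All 3 Rab5 genes, whose products drive early endosome fusion, had a peak over the TSS. Rab5a had 115 tags (94.9 to 138) with a fold of 6.04 (score 272; chromosome 17, 53617884 to 53619062), Rab5c had 68 tags (52.8 to 86.2) and a fold of 4.31, and Rab5b had 61 tags (46.7 to 78.4) and a fold of 2.83. Rab5a was thus above its relatives, with a tag interval clear of theirs. Its peak was also the widest (1178 bp, against 778 bp for Rab5c and 903 bp for Rab5b). Per kb of peak it held 97.6 tags, against 87.4 for Rab5c and 67.6 for Rab5b. Rab14, of Golgi and endosomes, had as many tags as Rab1 (125) but a fold of 3.81. Rab22a, of early endosomes, had the lowest fold of all promoter peaks of the families (2.63, with 53 tags and a score of 52.0), and the peak also covered the start of a pseudogene, Ppp4r1l-ps. Neither Rab4 gene, which acts in fast recycling, had a promoter peak, and Rab21, Rab31 and Rab35 had none.

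Rab25, a Rab11 relative known from epithelia, was counted for a peak that lay 4206 bp upstream of its TSS. This peak (chromosome 3, 88356406 to 88358472; 200 tags, 173 to 230, fold 7.0, score 340) covered the starts of Lamtor2 and Ubqln4, and the file names Lamtor2 as closest. It was the second-highest score among promoter peaks of the families, yet it did not reach the start of Rab25.

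Exocytosis genes differed by paralogue set. Rab8a and Rab8b, which act in polarised membrane delivery, both had a peak over the TSS, with 106 tags (86.8 to 128) and a fold of 4.31 and 62 tags (47.5 to 79.5) and a fold of 4.76. Rab10, a related gene, had 78 tags at a fold of 4.38. Of the 4 Rab3 genes, which act in regulated secretion, only Rab3d had a promoter peak (72 tags, 56.3 to 90.7, fold 5.0, score 129), while Rab3b and Rab3c were not listed and Rab3a was listed for peaks beyond 5 kb. Both Rab27 genes, of secretory granules, were not listed for any peak. Rab37, also linked to secretory granules, had the highest fold of all promoter peaks of the families, 8.0, with 106 tags (86.8 to 128) and a score of 267. That peak (chromosome 11, 115018897 to 115019875; NM_021411) lay 3406 bp inside the gene, in an exon by the file's annotation.

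Of the late endosome Rab genes, 2 of 9 had a promoter peak, with an interval that includes the share of all genes (32.8%). Rab7, which drives fusion of late endosomes with lysosomes, was not listed for any peak, nor were Rab7b, Rab29, Rab32, Rab38 and Rab9b. Rab9, which acts between late endosomes and the Golgi, had a peak over its TSS on chromosome X with 31 tags (21.1 to 44.0) and a fold of 4.39 (score 60.6). Its tag count was the lowest of all promoter peaks of the families and its width, 450 bp, the smallest. Of the 4 X-linked members it was the 1 with a promoter peak, on a chromosome where 7.73% of all genes had one. Rab34 was counted for a peak 4504 bp upstream (57 tags, fold 4.0) that covered the starts of Rpl23a and Snord42b. Rab24 had none within 5 kb.

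Of the remaining GTPase genes, Rab12 had a peak over its TSS (39 tags, 27.7 to 53.3, fold 3.93) and Rab40c, whose product carries a SOCS box, a peak that ended 52 bp from it (59 tags, 44.9 to 76.1, fold 3.15). Rab17, Rab19, Rab23, Rab28, Rab39b, Rab40b and Rab42 were not listed, and Rab15, Rab20, Rab36, Rab39 and Rab44 were listed for peaks beyond 5 kb. Among promoter peaks of partner genes, that of Rab11fip3 had the highest score, with 83 tags (66.1 to 103) and a fold of 6.01 (score 191). Rab11fip2 and Rab11fip4 had folds of 4.19 and 3.93, so that 3 of the 5 genes for Rab11 effectors had a promoter peak. Rab3ip, which encodes an exchange factor for Rab8, had a fold of 5.45 in a peak shared with 4933412E12Rik. Rab3gap1, which encodes the catalytic subunit of a Rab3 GTPase-activating complex, had the lowest score of the Rab promoter peaks (42 tags, 30.3 to 56.8, fold 4.65, score 51.1), just above the lowest score in the list, 50.03. Rab3gap2, encoding the other subunit, Rab3il1, Rab11fip1 and Rab11fip5 were not listed.

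Vps promoter peaks were found among the genes of each sorting complex. Of 9 ESCRT and Vps4 genes 6 had one (66.7%, 29.9 to 92.5%), and of 5 retromer and retriever genes 4 (80.0%, 28.4 to 99.5%). Of 5 GARP and EARP genes 3 had one (60.0%, 14.7 to 94.7%), and of 4 Vps13 genes 3 (75%, 19.4 to 99.4%). Of 8 genes grouped under HOPS and CORVET, with Vps33b counted among them, 3 had one (37.5%, 8.52 to 75.5%). The share of all protein-coding genes was 32.8%. Each of these intervals includes the share of all genes, and groups this small cannot show whether a complex differs from it. All 21 covered the TSS of the member.

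Vps4a, the ATPase that takes ESCRT-III filaments apart, had the highest score among Vps promoter peaks. Its peak on chromosome 8 from 109554659 to 109555804 (NM_126165) held 112 tags (92.2 to 135) with a fold of 5.04 (score 192). Its paralogue Vps4b had no promoter peak and was listed for a peak over the start of Kdsr, 36457 bp from its own TSS. The ESCRT-II genes Vps36 and Vps25 had folds of 4.83 (97 tags, 78.7 to 118, score 157; chromosome 8, 23302982 to 23304043) and 4.68 (55 tags, 41.4 to 71.6). The ESCRT-I genes Vps28, Vps37a and Vps37c had folds of 4.86, 4.85 and 3.25. Vps37b and Vps37d had no promoter peak. Vps37b was listed for a peak in its own exon and another in an exon of Hip1r, both beyond 5 kb, and Vps37d was not listed. The Vps37a peak also covered the start of Cnot7. Apart from Vps37c, the folds of the 6 ESCRT genes lay between 4.68 and 5.04.

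All 3 kinds of retromer core subunit were marked. Vps26a had 106 tags (86.8 to 128) and a fold of 3.51 (score 153, chromosome 10, 61948838 to 61950122), Vps26b 51 tags (38.0 to 67.1) and a fold of 5.11, Vps29 73 tags (57.2 to 91.8) and a fold of 3.72 and Vps35 47 tags (34.5 to 62.5) and a fold of 3.23. Tags and fold ordered the Vps26 pair in opposite ways: Vps26a had more tags in a wider peak (1284 bp, against 728 bp for Vps26b) but the lower fold. The Vps35 peak also covered the start of Orc6, the Vps26b peak that of Ncapd3 and the Vps29 peak that of Rad9b. Vps35l, a retriever gene, was not listed.

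For GARP, Vps51, Vps52 and Vps54 had folds of 5.23, 3.64 and 3.67 with 68, 101 and 99 tags, and Vps53 was not listed, nor was Vps50 of the related EARP. The Vps52 peak also covered the start of Rps18. Of the core subunits that HOPS and CORVET share, Vps16, Vps18 and Vps33a had folds of 4.09, 3.74 and 4.33 with 82, 81 and 67 tags, and Vps33a had the lowest score among Vps promoter peaks (65.4). The fourth, Vps11, was listed for 4 peaks, each over the start of another gene and beyond 5 kb. The Vps16 peak also covered the start of Pced1a, which was named as its closest gene. The HOPS subunit genes Vps39 and Vps41 were not listed, the CORVET gene Vps8 had a peak 69463 bp inside the gene (47 tags, fold 4.60), and Vps33b was listed for peaks at Ttll13 and Prc1 alone.

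The Vps13 genes encode large proteins that carry lipid between membranes. Vps13d had the highest fold among Vps promoter peaks, 7.40, with 64 tags (49.3 to 81.7) and a score of 153 (chromosome 4, 144784566 to 144785337). Vps13a had 89 tags (71.5 to 110) with a fold of 4.60 (score 160; chromosome 19, 16854714 to 16855976), Vps13b 88 tags (70.6 to 108) and a fold of 3.64, and Vps13c was not listed. Vps72 does not encode a sorting factor but a subunit of chromatin complexes that handle the histone variant H2A.Z, and it had 89 tags (71.5 to 110) with a fold of 4.35 (score 169; chromosome 3, 94914513 to 94915613). Vps9d1 had 88 tags at a fold of 5.59 in a peak shared with the start of Zfp276. Vps45, a regulator of SNARE pairing, had no promoter peak.

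By their medians, the promoter peaks of both families lay close to those of genes in general, though the upper quartile of score was lower in both. With the highest-score promoter peak of each gene, the median fold was 4.38 for Rab (quartiles 3.95 and 5.77), 4.35 for Vps (3.67 and 4.86) and 4.51 for all 6875 genes with a promoter peak (3.81 and 5.55). The median score was 103 for Rab (quartiles 69.4 and 176) and 122 for Vps (86.8 and 153), beside 119 for all (79.7 and 198). Median tags were 64 for Rab and 81 for Vps, beside 78 for all, and median widths 874 bp and 1061 bp, beside 982 bp. Per kb of peak the medians were 76.1 tags for Rab and 80.7 tags for Vps, beside 78.1 for all.

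**Figure D2:**
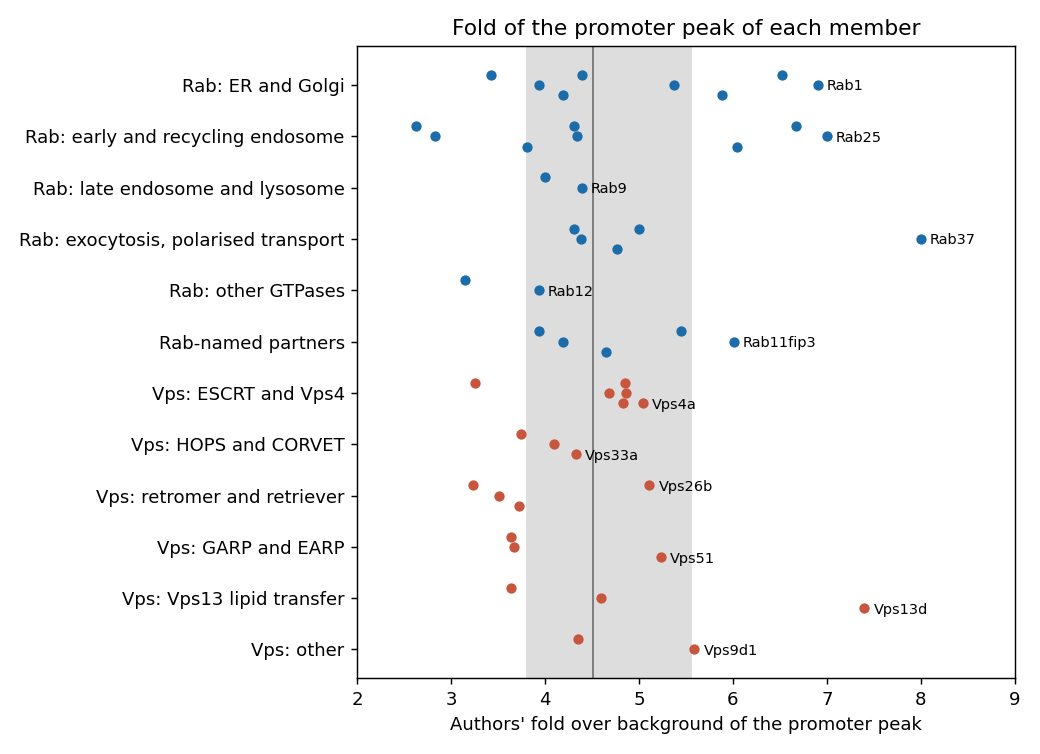
Authors' fold over background (x axis, linear) of the promoter peak of each of the 30 Rab (blue) and 21 Vps (red) genes that had one, by role, with the highest of each group named; dots are offset vertically for legibility. The line is the median of all genes with a promoter peak (4.51) and the grey band their quartiles (3.81 and 5.55); Rab folds run from 2.63 to 8.0 and Vps folds from 3.23 to 7.40.

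High folds and scores were seen more often among Rab than among Vps promoter peaks. The intervals of the Rab shares include the shares of all promoter-peak genes. Folds of at least 6 were seen at 7 of the 30 Rab promoter peaks (23.3%, 9.93 to 42.3%) and 1 of the 21 Vps promoter peaks (4.76%, 0.12 to 23.8%), beside 19.1% of all promoter-peak genes. Scores of at least 200 were seen at 5 of the 30 Rab promoter peaks (16.7%, 5.64 to 34.7%). They were seen at 0 of the 21 Vps promoter peaks (0%, up to 16.1%), beside 24.6% of all promoter-peak genes. Both Rab counts include the peaks of Rab25 and Rab37, which did not cover the TSS of the member. No promoter peak of either family reached a fold of 10 (0 of 68 Rab genes, up to 5.28%, and 0 of 34 Vps genes, up to 10.3%), beside 1.48% of all genes. None of these differences was tested.

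Most promoter peaks lay over the start itself. Of the 30 Rab promoter peaks 26 covered the TSS (86.7%, 69.3 to 96.2%) and of the 21 Vps promoter peaks all did (83.9 to 100%), beside 83.6% of all promoter-peak genes. The Rab exceptions were Rab40c, Rab37, Rab25 and Rab34. With a window of 1 kb the counts were 27 Rab and 21 Vps genes, beside 30.2% of all. The first members outside the 5 kb window were Rab13 at 6756 bp, with a peak over the starts of Gm9846 and Rps27 (46 tags, fold 3.81), and Rab24 at 7207 bp, with a peak over the start of Mxd3 (115 tags, fold 4.07). The start of another gene was covered as well by 6 of the 30 Rab peaks (20%) and 7 of the 21 Vps peaks (33.3%, 14.6 to 57.0%), beside 24.4% of all. For such peaks the file cannot say which of the genes the signal belongs to.

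Beyond the promoters, 68 further peaks were listed for members, 42 for Rab and 26 for Vps genes, with a median fold of 4.42. Of these, 43 covered the start of another gene, and in 10 cases the member was the closest gene. Only 3 had a fold of 10 or more, and each had another gene as closest. The strongest lay 4047 bp past the end of Rab1, in an intron by the file's annotation, with Cep68 as closest gene (chromosome 11, 20130905 to 20131786; 186 tags, 160 to 215, fold 27.3, score 1067). Its fold exceeded that of the Rab1 promoter peak and of every promoter peak of the families. The next lay 9736 bp past the end of Vps36 with Thsd1 as closest gene (chromosome 8, 23338804 to 23339834; 205 tags, 178 to 235, fold 15.6, score 822). The other covered the start of Ppp4r1, 9541 bp upstream of Rab31 (chromosome 17, 66131632 to 66133459; 232 tags, 203 to 264, fold 13.9, score 654).

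**Figure D3:**
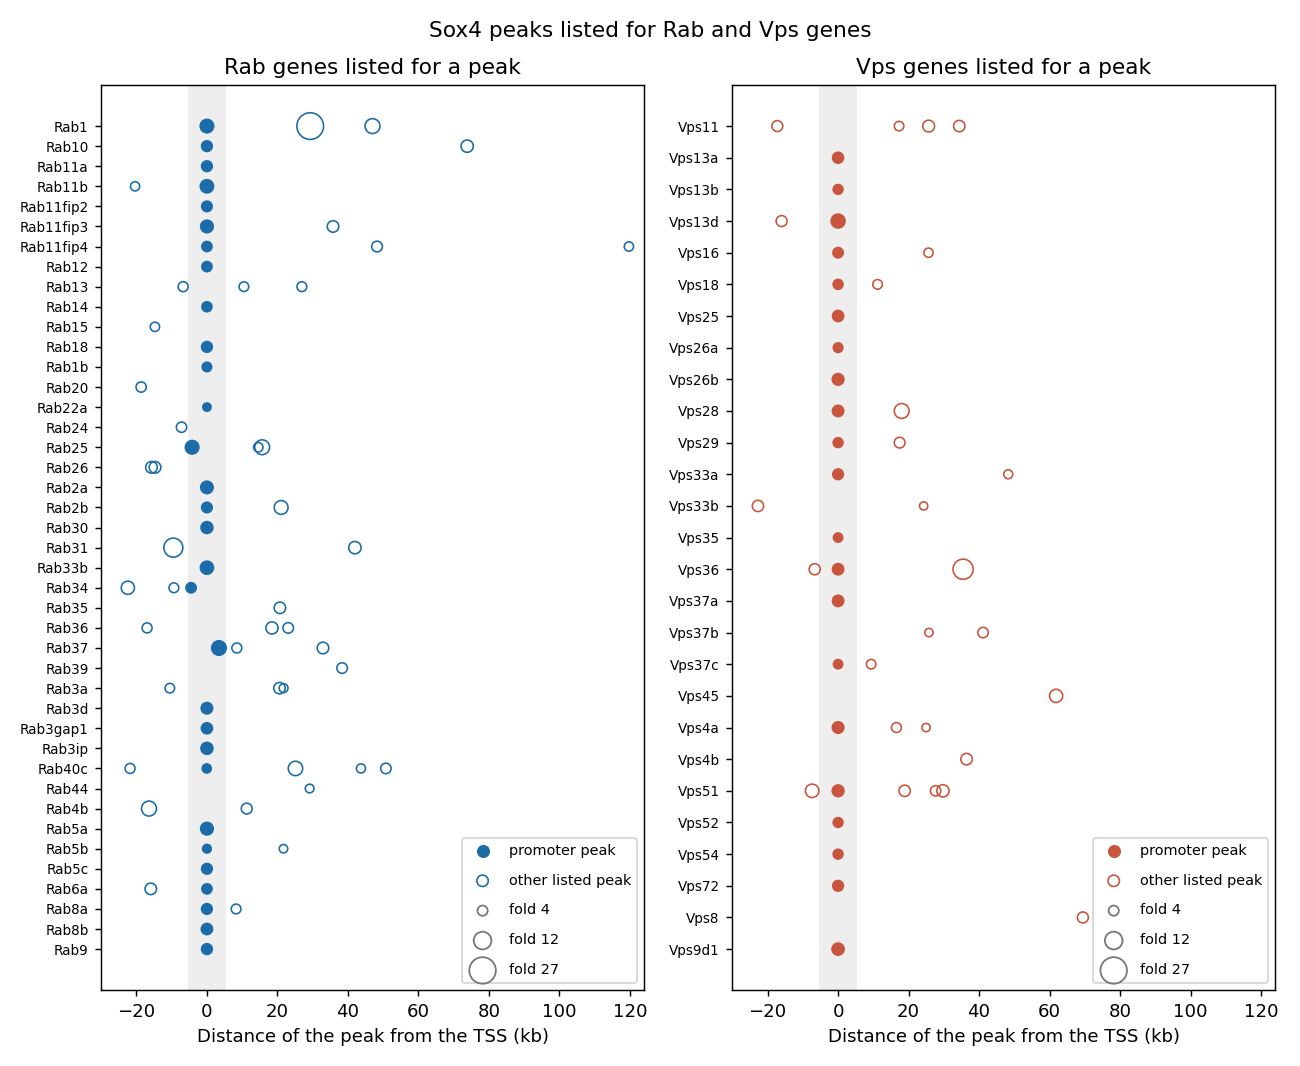
Position of each listed peak relative to the TSS of the member (x axis, kb; negative is upstream, 0 means that the peak covers the TSS), for 42 Rab genes (left) and 27 Vps genes (right); filled circles are promoter peaks, open circles other listed peaks, the area grows with the fold, and the band marks 5 kb on either side. Vps promoter peaks all stand at 0, and the largest open circle is the peak of fold 27.3 past the end of Rab1.

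More than 1 peak was listed for 32 members, 19 Rab and 13 Vps. The share of all protein-coding genes with more than 1 listed peak was not counted, so these counts are description only. The 10 further peaks with the member as closest gene were as follows. In introns, they lay in Rab31 (111 tags, fold 5.85, 41989 bp from the TSS), Rab8a (45 tags, fold 3.62), Vps37c (77 tags, fold 3.47) and Vps8. An exon of Vps37b held 1 (49 tags, fold 2.67) and the end of Vps18 another (143 tags, fold 3.51, 1494 bp past the end). They lay downstream of Rab35 (45 tags, fold 5.03) and Rab44 (77 tags, fold 2.88) and upstream of Rab3a (83 tags, fold 3.48) and Vps13d (42 tags, fold 4.62). Rab37 also had 2 peaks past its end, at the starts of Slc9a3r1 (106 tags, fold 3.81) and of Nat9 and Tmem104 (42 tags, fold 5.16).

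Several members sit in gene-dense stretches where the listed peaks lie over the starts of neighbours. Those listed for Vps11 included peaks at Dpagt1 (89 tags, fold 4.96), H2afx (146 tags, fold 5.32) and Hyou1 (94 tags, fold 4.55). Vps51 had 4 peaks besides its own promoter, of which those at Syvn1 (149 tags), Fau with Mrpl49 (79 tags) and Cdca5 with Zfpl1 (72 tags) had folds of 5.77, 4.92 and 6.95. Rab40c had 4 besides its own, at Fam195a, 0610011F06Rik and Pigq with folds of 4.22, 3.17 and 3.78, and near Gm10012 with 67 tags at a fold of 7.94. Vps45 was listed for a strong peak over the start of Plekho1 (207 tags, 180 to 237, fold 6.67, score 499) 3237 bp past its end. Rab4b had peaks at Egln2 (128 tags, fold 4.50) and at BC024978 with Snrpa (115 tags, fold 8.55), and Rab25 further ones near Mex3a (193 and 83 tags, folds 8.47 and 3.40). Rab34 had peaks at Traf4 (249 tags, 219 to 282, fold 6.67) and Tlcd1 (59 tags, fold 3.67).

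Other members without a promoter peak were listed at neighbours too. Rab36 lies beside Bcr, the gene whose human counterpart forms part of the Bcr-Abl fusion, and was listed for peaks at its start (128 tags, 107 to 152, fold 4.25) and just before it (54 tags, fold 5.69), and for 1 in an intron of Rtdr1 (49 tags, fold 3.83). Rab26, of secretory granules, was listed for a pair of peaks at Pkd1 (109 and 50 tags, folds 5.20 and 5.23). Rab13, of tight junction traffic, was also listed for peaks at Jtb (76 tags, fold 3.57) and Slc39a1 (74 tags, fold 3.67). The peak listed for Rab39 lay at Cul5 (82 tags, fold 4.28), that for Rab15 at Fntb (56 tags, fold 3.33) and that for Rab20 at Carkd (52 tags, fold 4.04). Members with a promoter peak of their own had stronger ones nearby at Vps28, where the peak over the start of Cpsf1 had a fold of 8.43 (73 tags, 57.2 to 91.8), and at Rab2b, where a peak upstream of Chd8 had a fold of 7.31 (113 tags, 93.1 to 136).

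Some paralogue sets were marked whole and others in part. Every member of the Rab1, Rab2, Rab5, Rab8, Rab11 and Vps26 sets had a promoter peak, and no member of the Rab4, Rab7, Rab27 and Rab39 sets did. The Rab3, Rab6, Rab9, Rab33, Rab40, Rab3gap, Rab11fip, Vps4, Vps13, Vps33, Vps35 and Vps37 sets were split. In the Rab6 set, Rab6a had 66 tags (51.0 to 84.0) and Rab6b none listed. A gene that is not listed has no peak within 25 kb in this list, which does not give the number of tags there.

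Promoter windows were found in the RefSeq table for 76 of the 102 members (55 Rab and 21 Vps, 99 windows). Windows of genes with a promoter peak held more CpG than those without. For Rab, the median was 26.5 CpG in 28 windows with and 18 in 45 windows without, for Vps 22 in 19 windows with and 15 in 7 windows without, and for all protein-coding genes 23 in 7199 windows with and 8 in 13218 windows without. Members without a promoter peak thus had a higher median than genes in general without one. The overlap was broad, since Rab windows without a promoter peak ran from 1 to 45 CpG and those with one from 5 to 44.

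**Figure D4:**
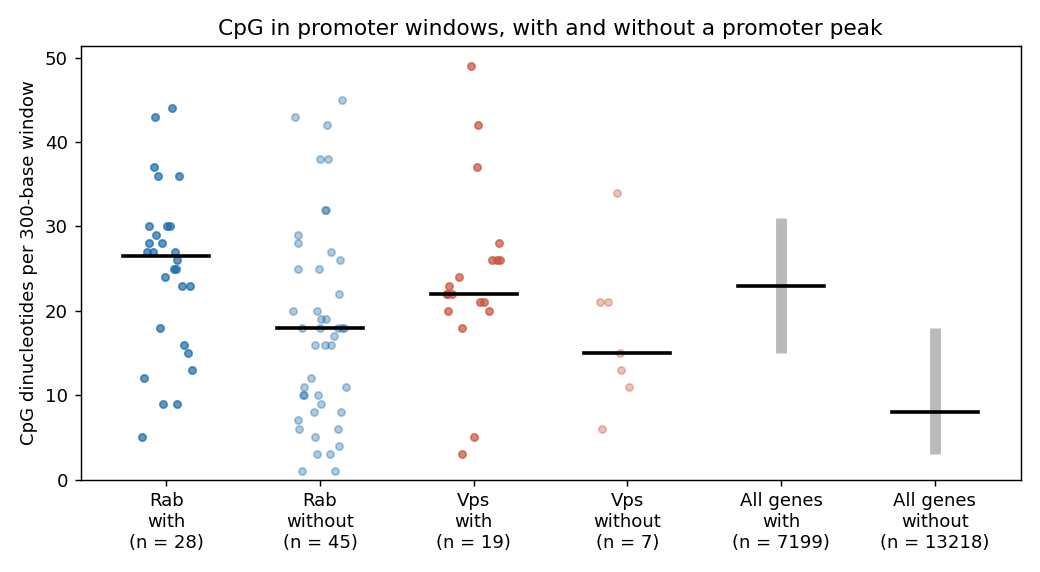
CpG dinucleotides per RefSeq window of 300 bases (y axis) for genes with and without a promoter peak. Dots are windows of Rab (blue) and Vps (red) genes, black lines medians (26.5, 18, 22, 15, 23 and 8 from left to right), and grey bars the quartiles of all protein-coding genes; the dots with and without a peak overlap over most of the range.

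Sox proteins bind sequences with the core ACAAAG or ACAATG. Searched on both strands, either core was found in 4 of 28 Rab windows with a promoter peak (14.3%) and 5 of 45 without (11.1%), in 4 of 19 Vps windows with (21.1%) and 0 of 7 without, and in 20.7% of all windows with and 27.4% without. Of the windows printed above, Rab11b held 1 match to ACAATG on the other strand (from base 165), Vps4a 1 to ACAAAG on the other strand (from base 37) and Rab17, which had no peak, 2 to ACAAAG on the other strand (from bases 4 and 86). The peaks are wider than these windows, so that most of each peak was not searched.

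Genes that work beside these families were counted in the same way, against the 32.8% of all protein-coding genes. Promoter peaks were found at all 6 genes for retromer-linked sorting nexins (54.1 to 100%). Of 20 ESCRT genes not named Vps 15 had one (75%, 50.9 to 91.3%), and of 12 endosomal SNARE genes 9 (75%, 42.8 to 94.5%). Among genes for Rab prenylation and recycling 5 of 7 had one (71.4%, 29.0 to 96.3%). Among exocyst genes 6 of 9 had one (66.7%, 29.9 to 92.5%). The intervals of the prenylation and exocyst genes include the share of all genes. Those of the nexin, ESCRT and SNARE genes lay above it. The peaks counted for Chml (prenylation) and Chmp2a (ESCRT) lay upstream of their own starts and covered those of Opn3 and Ube2m. The class III PI3-kinase complexes make the lipid that marks early endosomes. Of their 5 genes, Uvrag alone had a promoter peak (95 tags, fold 3.81). The interval of this share (20%, 0.505 to 71.6%) includes that of all genes. The highest folds of the nexin genes were 7.54 at Snx1 and 7.45 at Snx5, whose peak also covered the start of Mgme1. Nexin folds ran down to 3.77 at Snx6, with a median of 5.2. Of the ESCRT genes not named Vps, the ESCRT-III genes Chmp1b and Chmp7 had the highest folds (7.74 and 7.15) and Chmp3 the lowest (2.96). The median of these ESCRT genes was 4.04, beside 4.51 for all genes with a promoter peak. Tsg101, the ESCRT-I partner of Vps28, had a fold of 5.12. Rabggta and Rabggtb, the subunits of the enzyme that attaches the lipid anchor to Rab proteins, had folds of 5.59 and 4.27.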

How the data were processed

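One peak list of the Sox4 bioChIP library was analysed. Bowtie 0.12.8, MACS 1.4.2 and mm9 are named, without parameters, per the submitters' processing notes. Whether the input library served as control, and the depth of either library, are not given in the sources used here. The tag number is the authors' whole-number count of reads per peak, not normalized. The fold is the authors' linear ratio of tags to the background expected by the peak caller, and the deposited score is taken to be a p-value on the scale of minus 10 log10, as MACS writes it. These values rank peaks within this list only. Distances are the deposited ones, measured from the peak interval, with 0 for overlap. Printed positions are the list's own, and whether starts count from 0 or 1 is not stated.

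Of 15228 listed transcripts, 14989 were matched to the RefSeq gene table (GRCm38.p6) by accession, 195 by symbol, 32 by an older symbol and 12 not at all. None of that table's coordinates were used with the peaks. As background served 20949 protein-coding genes that have an NM accession and lie on an autosome (1 to 19) or X. Rab5if and Vps26c are listed under other symbols and were left out, though both had a promoter peak (folds of 7.02 and 4.35). Leaving them out lowers both shares, which are 44.9% for Rab and 62.9% for Vps with them added. Vps50 and Vps35l may have had other symbols then, but no listed transcript was matched to either, and both were kept. Where a gene had several promoter peaks, the highest score was used. Full values were due for the 6 highest and the lowest scores of each family, folds of 10 or more, members with several peaks and split paralogue sets; for the last 2 kinds positions were mostly left out. The comparison of windows by CpG and motif was chosen after the data were seen. Members, lists and roles were chosen with earlier results of these data known. Matching by accession and the 5 kb window were checked on simulated distances. That check does not cover the reading of the peak list, matching by symbol or renamed genes. Python 3.11.15, pandas 2.3.3 and scipy 1.17.1 were used.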

Additional observations from a re-analysis of the deposited data

How the results depend on the processing

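The counts of genes with a promoter peak, 30 of 68 for Rab and 21 of 34 for Vps, stayed within 1.5 times of these values with a TSS window of 1 kb (27 and 21; all genes 30.2%) or 20 kb (39 and 22; 41.9%), with peaks counted only for the closest gene (25 and 17; 27.7%), with renamed genes added (31 of 69 and 22 of 35), without partner genes and without Vps72 and Vps9d1 (25 of 59 and 19 of 32), and without X-linked genes (29 of 64 and 21 of 34). With only the 4365 peaks of higher score, the counts were 15 for Rab (22.1%) and 13 for Vps (38.2%), beside 18.9% of all genes, and with peaks of a fold of 10 or more they were 0 and 0, beside 1.48%, since both settings keep fewer peaks. The Vps share was above the Rab share in each of these settings except the last. At 20 kb they were closest (57.4% for Rab and 64.7% for Vps). The interval of the Rab share included the share of all genes except at 20 kb and with renamed genes added, and that of the Vps share lay above it except with folds of 10 or more. Median fold, score and tags stayed within the intervals of the medians for each alternative tried. No paired analysis was possible because the series has 1 library of each kind and no test was made. Depth is unknown, so a start without a peak may hold signal too weak to be called.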
